A study of Mus musculus with 6 samples.

Results

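The 10 genes described here were those of prostaglandin synthesis, breakdown and reception listed for this uterus study: Ptgs1, Ptgs2, Ptges, Ptgis, Ptgds, Hpgd, Ptger2, Ptger3, Ptger4 and Ptgfr. They were looked up by symbol, and all 10 were found among the 24077 genes of the single-cell count table and the 30828 genes of the spatial count tables. The mice were of the CD-1 strain. Pups received subcutaneous injections of corn oil alone (CO) or of diethylstilbestrol (DES), a synthetic estrogen, in the same oil at 1 mg/kg per day on days 1 to 5 of life, and uteri were taken at 12 months of age. The DES mice were then in persistent estrus and the CO mice were picked while in estrus, so both groups stood at the same named stage of the cycle, reached in different ways. For single-cell RNA sequencing, cells of 2 CO uteri were pooled into 1 library and cells of 4 DES uteri into another, so that the treatment difference in single cells has no replicate and carries no test. For spatial transcriptomics, 2 CO and 2 DES sections, each from 1 mouse, were placed on 1 slide. The DES sections were selected because they held adenocarcinoma.

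Prostaglandins are short-lived lipid signals made from arachidonic acid. The cyclooxygenases, Ptgs1 (constitutive in many tissues) and Ptgs2 (inducible), make the precursor prostaglandin H2, which Ptges turns into prostaglandin E2, Ptgis into prostacyclin and Ptgds into prostaglandin D2. Hpgd, 15-hydroxyprostaglandin dehydrogenase, inactivates prostaglandins. Ptger2 and Ptger4 are prostaglandin E2 receptors that raise cyclic AMP, Ptger3 is one that mostly lowers it, and Ptgfr is the prostaglandin F2-alpha receptor. In the uterus these signals are known for their roles in implantation, labour and contraction of smooth muscle.

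The single-cell table held 32387 CO cells and 16312 DES cells, with a median of 6779 and 10153.5 unique molecular identifiers (UMIs, counted RNA molecules) per cell. Cell types came with the deposited table for part of the cells. In all, 20134 CO and 6611 DES cells had none. The 2 libraries shared 180 cell barcodes, 32 of them among cells with a cell type. The markers of the named types were highest where the names place them for epithelial, mesothelial, stromal and muscle cells. Cells labelled lymphocytes carried markers of both lymphocytes and myeloid cells. Levels are in CPM, the UMIs of a gene scaled to 1000000 UMIs of the group. Summed lymphocyte markers were highest in these cells, at 1439 CPM in CO and 1262 CPM in DES, against 383 and 323 CPM in myeloid cells. Their summed myeloid markers (Lyz2, Cd68, Csf1r, C1qa) reached 3390 CPM in CO and 8835 CPM in DES. Myeloid cells held 6827 and 17894 CPM of these. The cells are called lymphocyte-labelled cells below. The CO myeloid cells, 67 in number, carried mesothelial markers (Msln, Upk3b, Lrrn4) at 20.2% of the level in CO mesothelial cells. The spatial sections held 1357 to 1834 spots and 9117099 to 12506177 UMIs each. Per the study, the tissue of CO B was partly folded and spot clusters were harder to name in DES B, whose stromal spots are used here. A spot covers several cells, and in sections fewer cells of a type and less RNA per cell cannot be told apart.

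The deposited counts were aligned to mm10, and the positions given here are those of GENCODE release M21 on GRCm38, the same build. All members are protein-coding genes. Ptgs1 lies at chr2:36230426-36252272 on the plus strand and Ptgs2 at chr1:150100031-150108227 on the plus strand. Ptges (chr2:30889471-30929863), Ptgis (chr2:167191805-167240604) and Ptgds (chr2:25466709-25470046) are all on the minus strand of the same chromosome as Ptgs1. Hpgd lies at chr8:56294585-56321043 on the plus strand. Among the receptors, Ptger2 lies at chr14:44988195-45003820 and Ptger3 at chr3:157566892-157645888, both on the plus strand, and Ptger4 at chr15:5206661-5244187 and Ptgfr at chr3:151796502-151837630, both on the minus strand.

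The 250 bases before the transcription start are shown for the enzymes on which the epithelial results turn, both cyclooxygenases and Ptges (RefSeq sequences on GRCm38.p6, 5′ to 3′ on the strand of the gene). Capitals mark the GC box GGGCGG.
Ptgs1: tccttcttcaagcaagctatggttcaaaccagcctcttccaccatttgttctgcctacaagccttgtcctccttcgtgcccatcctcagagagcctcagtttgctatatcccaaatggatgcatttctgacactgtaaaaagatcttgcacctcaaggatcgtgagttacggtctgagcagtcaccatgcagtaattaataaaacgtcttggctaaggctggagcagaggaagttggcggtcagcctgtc
Ptgs2: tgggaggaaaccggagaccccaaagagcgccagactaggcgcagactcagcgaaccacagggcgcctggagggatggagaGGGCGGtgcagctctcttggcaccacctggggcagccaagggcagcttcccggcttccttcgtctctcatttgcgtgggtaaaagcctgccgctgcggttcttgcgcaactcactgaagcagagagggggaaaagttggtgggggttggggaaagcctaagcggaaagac
Ptges: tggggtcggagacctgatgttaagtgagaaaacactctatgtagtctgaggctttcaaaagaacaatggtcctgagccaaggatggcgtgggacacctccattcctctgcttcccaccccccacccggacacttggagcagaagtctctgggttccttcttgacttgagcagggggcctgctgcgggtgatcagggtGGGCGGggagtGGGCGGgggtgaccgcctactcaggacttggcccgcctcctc
The windows are chr2:36230176-36230425 (plus strand) for Ptgs1, chr1:150099781-150100030 (plus) for Ptgs2 and chr2:30903298-30903547 (minus) for Ptges, whose RefSeq start lies inside the GENCODE gene. RefSeq promoters were given for 9 of the 10 members, Ptgis being the exception. The search covered both strands for the TATA box (TATAAA), the CCAAT box (spelled by its name), the GC box (GGGCGG), the E box (CACGTG), the core of a cyclic AMP response element (TGACG) and the AP-1 site (TGANTCA), of which none overlaps another in these windows. The Ptgs1 window, of 48% GC, held none of them. The Ptgs2 window, of 61.6% GC, held 1 GC box, whose first base lies 170 bases before the start, and the Ptges window, of 59.6% GC, held 2, at 53 and 42 bases. Over all 32851 promoters of that length, 32.7% held a GC box, 33.8% a CCAAT box, 17.8% the TGACG core, 12.4% a TATA box, 6.75% an AP-1 site and 6.02% an E box, so a GC box is a common match. It was found for 6 of the 9 members.

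Both cyclooxygenases were found in myeloid and mesothelial cells of both libraries. Levels are in CPM over all cells of a type, with exact Poisson 95% intervals that cover counting error only. Ptgs1 stood at 74.5 CPM (72.6 to 76.4) in CO mesothelial cells, the cells that line the outer surface of the uterus, and at 58.2 CPM (56.4 to 60.1) in DES ones. CO mesothelial cells gave 78.4% of the Ptgs1 UMIs of all CO cells with a cell type. The highest Ptgs1 level was in DES myeloid cells, at 122 CPM (107 to 138). CO myeloid cells held 68.2 CPM, an interval that overlapped that of CO mesothelial cells. CO myocytes (32.8 CPM) and endothelial cells (31.2 CPM) came next and overlapped each other, and CO stromal cells were low, at 3.58 CPM. In the epithelium, Ptgs1 held 18.1 CPM (17.2 to 19.1) in CO and 16.9 CPM (16.3 to 17.5) in DES, a DES to CO ratio of 0.931 (0.874 to 0.993).

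Ptgs2 had the lowest DES to CO ratio in the epithelium of the 9 members for which a ratio could be given. It stood at 34.2 CPM (32.9 to 35.5) in the 2583 CO epithelial cells and at 2.61 CPM (2.38 to 2.86) in the 5255 DES epithelial cells, a ratio of 0.0763 (0.069 to 0.0843). With every cell thinned to 3000 UMIs, 7.57% of CO and 0.923% of DES epithelial cells had a Ptgs2 UMI, with median depths before thinning of 23458 and 21900 UMIs. Mesothelial cells moved in the same direction, from 30.6 CPM (29.5 to 31.9) in CO to 4.85 CPM (4.32 to 5.41) in DES, a ratio of 0.158 (0.14 to 0.178). Myeloid cells did not: Ptgs2 held 90.9 CPM in CO and 89.7 CPM (77.2 to 104) in DES. Lymphocyte-labelled cells held 98.8 CPM (86.2 to 113) in CO and 120.2 CPM (103 to 139) in DES, intervals that overlap. CO stromal cells held 9.8 CPM.

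Immediate early genes, which are known to respond quickly to tissue handling among other stimuli, moved with Ptgs2 in part. Fos, Jun, Junb, Egr1, Atf3 and Ier2, a list picked after the data had been seen, summed to 3083 CPM in CO and 1195 CPM in DES epithelial cells, and to 2608 and 957 CPM in mesothelial cells. Within the DES epithelium the values went both ways. The basal cells there summed to 7504 CPM of these genes with 3.24 CPM of Ptgs2, while the cells of the DES library's own epithelial clusters, which hold few basal cells, summed to 669 CPM. Among those clusters, cluster 9 stood apart with 6519 CPM, against 292 to 780 CPM in the others, and it also had the highest Ptgs2 level of them, at 11.6 CPM. Clusters 15 and 0 came close to that level, at 9.58 and 8.38 CPM of Ptgs2, with 386 and 306 CPM of the immediate early genes. DES myeloid cells (8224 CPM) also lay above CO myeloid cells (4763 CPM) without a higher Ptgs2 level. The part of these genes in the Ptgs2 difference was not tested.

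**Figure D1:**
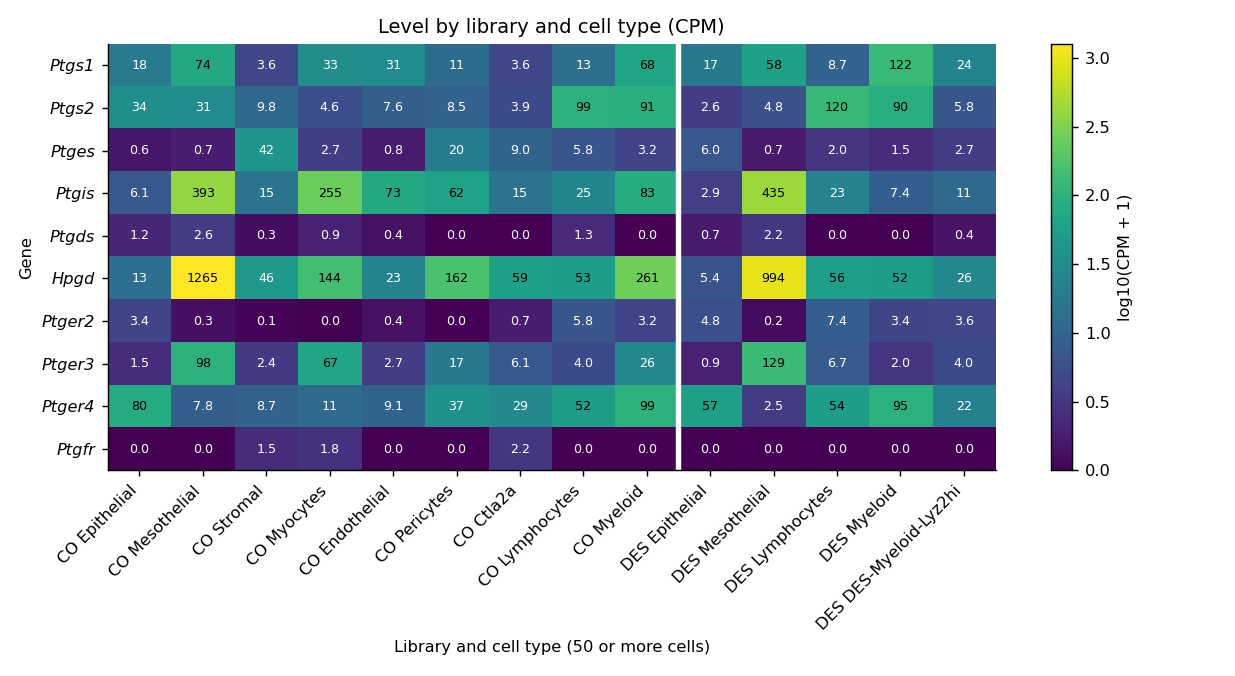
Levels of the 10 genes (rows) in the single-cell libraries by cell type (columns), with CPM printed in each field over a log10(CPM + 1) colour scale, for groups of 50 or more cells; Ctla2a is a cell type name of the authors. Ptgis, Hpgd and Ptger3 are highest in mesothelial cells of both libraries, Ptges in CO stromal cells, and Ptger4 in myeloid and epithelial cells.

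Prostaglandin E2 synthase, Ptges, was highest in stromal cells in the CO library and in epithelial cells in the DES library, which had 1 stromal cell, so no DES stromal level is given. Each interval overlapped that of the next type, CO pericytes and the DES cells named DES-Myeloid-Lyz2hi (2.69 CPM). CO stromal cells held 41.6 CPM (38 to 45.4) and gave 75.7% of the Ptges UMIs of CO cells with a cell type, with a UMI in 12.1% of thinned cells against 0.156% of CO epithelial cells. CO pericytes (19.9 CPM) and the cells named Ctla2a (8.96 CPM) followed, and CO epithelial cells held 0.558 CPM (0.406 to 0.75). In DES epithelial cells Ptges held 6.03 CPM (5.67 to 6.4), 10.8 times the CO level (7.99 to 14.9). With each cell given equal weight the ratio was 22.1, outside that interval. Mesothelial cells of CO and DES held 0.734 and 0.681 CPM.

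Basal cells carried most of the DES epithelial Ptges. Cells with over 1 UMI of both Krt14 and Trp63, the study's rule for basal cells, were 9.19% of the DES epithelial cells and held 5.61% of their UMIs, yet they gave 735 of the 1062 Ptges UMIs, or 69.2% (66.3 to 72, exact binomial). Their Ptges level was 74.3 CPM (69.1 to 79.9), with a UMI in 21.5% of thinned cells. In the clusters of both libraries together, the 2 the study called basal, 8 and 11, held 79.4 and 84.4 CPM. Stromal markers (Dpt, Vcan, Col6a3, Pdgfra) summed to 2.73 CPM in the basal cells, with 2 of 4 at 0, against 2762 CPM in CO stromal cells. The 4608 cells of the DES library's own epithelial clusters, of which 4 met the basal rule, held 1.12 CPM of Ptges (0.96 to 1.29), 2 times the CO epithelial level (1.43 to 2.84). Basal markers (Krt14, Trp63, Krt5) summed to 85.1 CPM in these cells and to 5211 CPM in the basal cells. The part of basal RNA in the 1.12 CPM was not tested. Among the authors' clusters of DES epithelium, Ptges was 14.4 CPM (10.1 to 20.1) in cluster 14 and 4.38 CPM in cluster 7.

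Prostacyclin synthase, Ptgis, the inactivating enzyme Hpgd and the receptor Ptger3 shared one pattern, with mesothelial cells highest in both libraries. Ptgis held 393 CPM (389 to 398) in CO and 435 CPM (430 to 440.2) in DES mesothelial cells, a ratio of 1.11 (1.09 to 1.12). Hpgd held 1265 CPM in CO and 994 CPM in DES mesothelial cells, a ratio of 0.786, with a UMI in 85.2% and 83.7% of thinned cells against 4.14% of CO and 2.11% of DES epithelial cells. Ptger3 held 98.0 CPM (95.8 to 100.1) in CO and 129 CPM (126 to 132) in DES mesothelial cells, a ratio of 1.32 (1.28 to 1.36). Mesothelial cells gave from 95.9% to 98.1% of the UMIs of each of these genes in cells with a cell type, in either library. These shares depend on the cells captured. The CO library held 6866 mesothelial cells and 85 myocytes, and the DES library had no cells labelled myocytes. In sections, the CO muscle-rich spots described below held 377 and 555 CPM of Ptgis and 75.0 and 62.2 CPM of Ptger3. Mesothelial markers in those spots were 8.58 and 4.29 CPM.

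CO myocytes, the smooth muscle cells, were next for Ptgis and Ptger3. The 85 myocytes held 255 CPM of Ptgis (226 to 287) and 67.5 CPM of Ptger3 (53 to 84.7). Their mesothelial markers stood at 10.3% of the level in CO mesothelial cells, against 64.9% for Ptgis and 68.9% for Ptger3. Hpgd in myocytes, at 144 CPM, was 11.4% of the mesothelial level, close to the share of the markers. CO endothelial cells held 73.0 CPM of Ptgis (63.1 to 84.1), 18.6% of the mesothelial level where their mesothelial markers were at 2.91%.

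Over all epithelial cells of a library, the shares of the mesothelial level held by these 3 genes were no higher than the share held by the mesothelial markers. CO epithelial cells held mesothelial markers at 1.86% of the mesothelial level, Ptgis at 1.55%, Hpgd at 1.00% and Ptger3 at 1.57%. DES epithelial cells held the markers at 0.945%, Ptgis at 0.669%, Hpgd at 0.548% and Ptger3 at 0.708%. The DES to CO ratios of epithelial Ptgis and Hpgd, 0.479 and 0.429, therefore concern levels that stood at or under those shares, and no direction of epithelial expression is read from them. Basal cells held more Hpgd and Ptger3 than the other DES epithelial cells, by more than their mesothelial markers differed. Basal shares of the mesothelial level were not taken, so the statement for all epithelial cells is not extended to basal cells. Hpgd held 14.2 CPM (11.9 to 16.7) in basal cells and 4.79 CPM (4.46 to 5.13) in the DES library's own clusters, and Ptger3 2.43 and 0.75 CPM, where mesothelial markers summed to 25.3 and 20.7 CPM. Basal cells gave 14.6% of the Hpgd, 14.9% of the Ptger3 and 8.77% of the Ptgis UMIs of the DES epithelium. They held 5.61% of all its UMIs, and their Ptger3 count was 24 UMIs. The levels in CO myeloid cells stood close to their mesothelial markers, with Ptgis, Hpgd and Ptger3 at 21, 20.7 and 26.5% of the mesothelial level beside markers at 20.2%.

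Of the cyclic AMP-raising receptors, Ptger4 was highest in myeloid and epithelial cells, and Ptger2 was low in every cell type. Ptger4 held 80.0 CPM (78 to 82) in CO and 57.0 CPM (55.9 to 58.1) in DES epithelial cells, a ratio of 0.712 (0.69 to 0.735), with a UMI in 20.4% and 14.6% of thinned cells. Mesothelial cells, as a type with little Ptger4, had a UMI in 2.5% of CO and 0.635% of DES cells at median depths of 10436 and 12329 UMIs. Myeloid cells held 99.0 CPM of Ptger4 in CO (75.7 to 127) and 95.1 CPM in DES (82.2 to 109). Ptger2 held 3.44 CPM (3.04 to 3.87) in CO and 4.76 CPM (4.44 to 5.09) in DES epithelium, and 5.78 and 7.39 CPM in lymphocyte-labelled cells. The Ptger2 ratio in the epithelium, 1.38 (1.2 to 1.59), turned to 0.903 when each cell was given equal weight, so no direction is given.

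Ptgds and Ptgfr were close to the limit of detection. Ptgds reached at most 2.58 CPM, in CO mesothelial cells. Ptgfr was at most 2.15 CPM, in the CO cells named Ctla2a, with 1.82 CPM in myocytes and 1.53 CPM in stromal cells, and 1 UMI was counted over all DES epithelial cells.

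Within the CO epithelium Ptgs1, Ptgs2, Ptger2 and Ptger4 differed between the pooled glandular clusters and the pooled luminal ones. The study assigned clusters 3, 8, 13 and 14 to glands (417 cells) and 0, 1, 2, 4 to 7 and 9 to 11 to the lumen (2095 cells). Ptger2 held 27.9 CPM (24.5 to 31.6) in glandular clusters and 0.351 CPM (0.225 to 0.523) in luminal ones. Ptgs2 held 96.1 CPM (89.7 to 103) in glandular and 25 CPM (23.8 to 26.2) in luminal clusters, and Ptgs1 34.8 CPM (31 to 38.9) and 15.7 CPM (14.8 to 16.7). Ptger4 was the other way round, at 61.0 CPM in glandular and 83.5 CPM in luminal clusters. The summed immediate early genes were also higher in glandular clusters, at 5348 against 2783 CPM, but not cluster by cluster: cluster 13 summed to 4941 CPM with 3.37 CPM of Ptgs2, and cluster 8 to 1043 CPM with 66.7 CPM. Lymphocyte markers (Ptprc, Cd3e, Cd79a, Nkg7) were higher there too, at 47.2 against 6.47 CPM, while myeloid markers were lower, at 29 against 47.2 CPM. Lymphocyte-labelled cells had the highest Ptger2 and Ptgs2 levels of the CO cell types, at 5.78 and 98.8 CPM, overlapping the next type in each case. For Ptger2 that level lay under the 27.9 CPM of the glandular clusters. The part of such cells in the glandular values was not tested. These clusters come from 1 library of 2 pooled mice and were formed from the same counts, so the values are a description with no test.

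The glandular clusters were not alike. Clusters 3, 8 and 14, which the study described as developing glands, held Ptgs2 at 122, 66.7 and 115 CPM and Ptger2 at 26.6, 37.5 and 38.6 CPM, with Ptgs1 at 26.0, 44.9 and 22.0 CPM. Of these, the study further identified cluster 14, with 28 cells, as glandular progenitors. Cluster 13, its mature glands, held Ptgs2 at 3.37 CPM (0.695 to 9.84), Ptger2 at 2.25 CPM and Ptgs1 at 73.0 CPM (56.3 to 93). The cyclooxygenases were thus ordered in opposite ways between mature and developing glands. Cluster 12, the proposed stem cells, held 87.1 CPM of Ptgs2 and 2.26 CPM of Ptger2. Luminal clusters ranged widely in Ptgs2, from 1.45 CPM in cluster 10 to 54.7 CPM in cluster 5. Ptger4 ran from 39.6 CPM in cluster 12 to 156 CPM (144 to 169) in cluster 7.

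In the DES epithelium no cluster reached the Ptgs2 level of CO clusters 3, 8 and 14. The clusters held 0.241 CPM (cluster 12) to 11.6 CPM (cluster 9) of Ptgs2. Ptgs1 ran from 5.63 CPM in cluster 5, the proposed cancer cells, to 46.0 CPM in cluster 11. Ptger2 ran from 0.413 CPM in cluster 14 to 11.5 CPM in cluster 2. Ptger4 ran from 34.2 CPM in cluster 8 to 85.0 CPM in cluster 1. Basal cells held 10.6 CPM of Ptgs1, 0.405 CPM of Ptger2 and 44.3 CPM of Ptger4, and gave 0.477% of the Ptger2 UMIs of the DES epithelium.

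**Figure D2:**
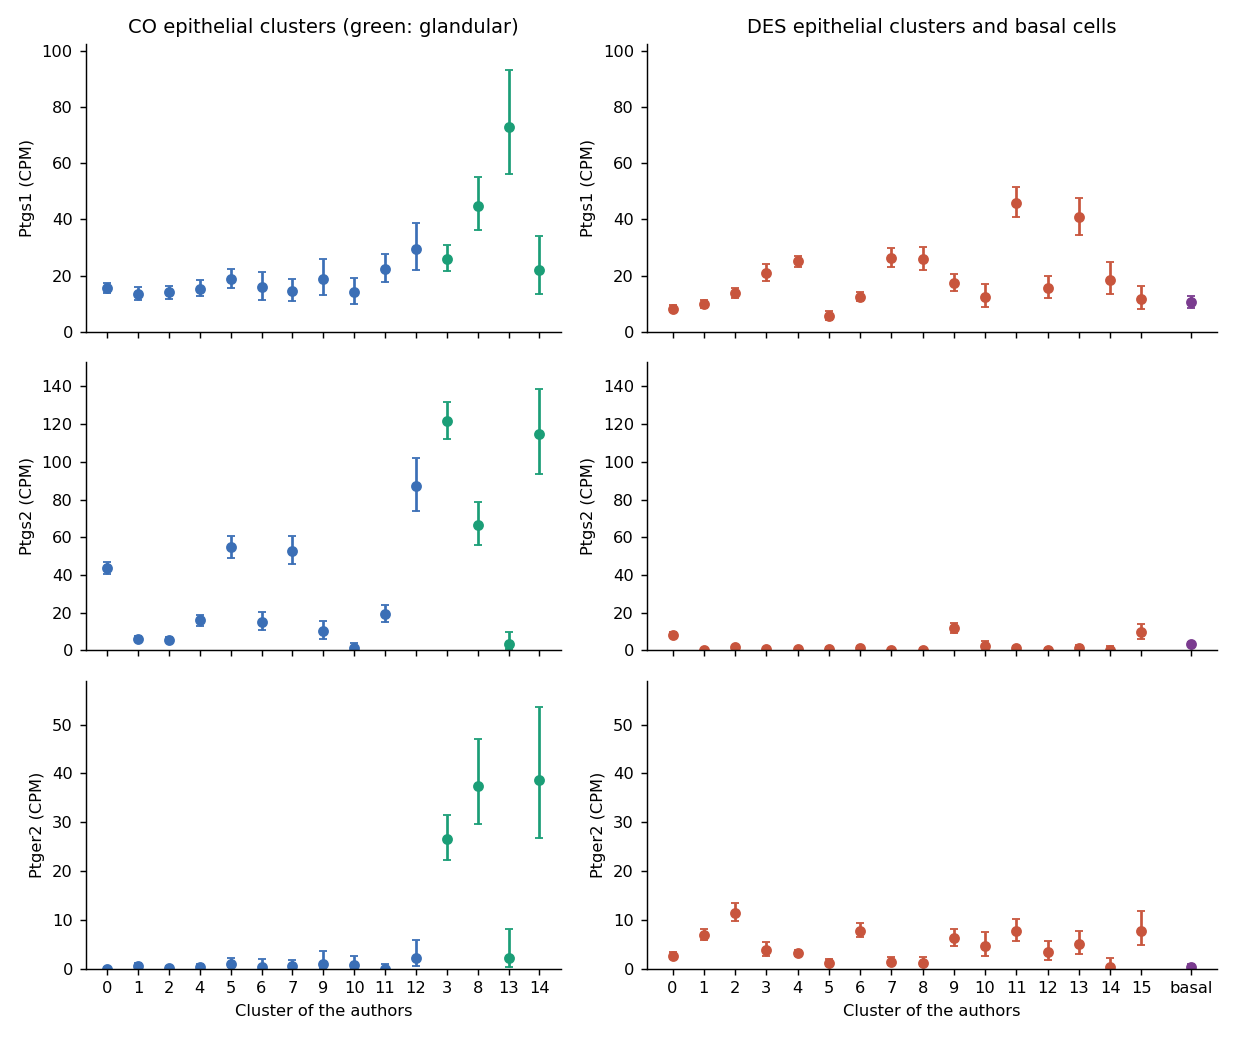
Levels of Ptgs1, Ptgs2 and Ptger2 (rows) in the authors' epithelial clusters of the CO library (left, glandular clusters in green) and of the DES library with its basal cells (right), in CPM with exact Poisson 95% intervals. CO clusters 3, 8 and 14 lie highest for Ptger2, and 3 and 14 for Ptgs2, while all DES clusters lie at or under 11.6 CPM for Ptgs2.

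The genes most like each member were taken over the 14 library and cell type groups of 50 or more cells, by Pearson's correlation of log2(CPM + 1), as a description over groups that share libraries. Ptgis was nearest to Gata6 (0.984), Kcnk5 and Mn1, and Hpgd to Rspo1 (0.975), Tmem151a and Lrrn4, the last a mesothelial marker. Ptger3 was nearest to Hoxc6 (0.975), Hoxc8 and Trdn, Ptgs2 to Birc3 (0.907), the chemokine Cxcl2 and the growth factor Areg, and Ptges to Kcnk2 (0.931), Glrb and the collagen gene Col7a1. Ptger4 was nearest to Epsti1 (0.925) and Ptgs1 to Med28 (0.866). Ptgds, Ptger2 and Ptgfr stayed under the 20 CPM that a like gene had to reach in some group, so their nearest genes are not named.

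The spatial sections give the replicated comparison of DES and CO. UMIs were summed per section and tested with edgeR's quasi-likelihood test, adjusted by Benjamini and Hochberg over all genes tested. Of 14098 genes, 5.3% passed at 0.05 (2.67% higher and 2.63% lower in DES), and of the 10 members 1 was higher in DES (Ptges) and 1 lower (Ptger3). The median log2 fold change was −1.43 over the members and −0.01 over all genes. In the regions described below, fewer members were tested. Their median was 1.17 in stromal spots, 1.40 in epithelium-rich spots and 0.21 in muscle-rich spots.

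Ptges held 13.9 and 12.3 CPM in the CO sections A and B and 62.4 and 50.6 CPM in the DES sections A and B. Both DES sections lay far above both CO sections. The log2 difference was 1.89 ± 0.19 (SE), or 3.71-fold, with an adjusted p of 0.0212. Without 1 section the Ptges log2 difference ran from 1.75 to 2.01. The call rests on both DES sections, since it was lost without DES A and without DES B. Most other calls of the whole sections were lost in those fits too. Relative to the summed epithelial markers (Epcam, Cdh1, Krt8, Krt18, Krt19), Ptges stood at 4.74 and 6.76 UMIs per 1000 marker UMIs in CO and at 20.5 and 15.4 in DES, so it was 3.12-fold higher on that scale.

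Ptger3 held 19.0 and 23.7 CPM in the CO sections and 2.63 and 2.23 CPM in the DES sections. The groups were wide apart. Ptger3 fell by 3.34 ± 0.26 on the log2 scale, or 10.1-fold, with an adjusted p of 0.0183. Without 1 section its log2 difference ran from −3.47 to −3.20, and the call was lost without DES A and without DES B. Muscle markers (Acta2, Myh11, Des, Cnn1, Actg2) moved with it, at 13345 and 14168 CPM in CO and 3077 and 3458 CPM in DES. Per 1000 UMIs of these markers, Ptger3 stood at 1.43 and 1.68 in CO and at 0.855 and 0.644 in DES, 2.07-fold lower. Markers of mesothelial cells, which had the highest Ptger3 in single cells, went the other way. They were 5.28 and 5.08 CPM in CO and 22 and 28.4 CPM in DES.

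Ptgis lay at the threshold and its direction depended on the scale. It held 107 and 172 CPM in CO and 57.3 and 60.9 CPM in DES, groups that did not overlap, with a log2 difference of −1.44 ± 0.26 and an adjusted p of 0.0508. It passed in 3 of 4 other settings, which ranged from 0.000101 by DESeq2 to 0.0574 with the section letter as a block. Per 1000 muscle marker UMIs it was 8.05 and 12.2 in CO and 18.6 and 17.6 in DES, 1.79-fold higher. Markers of mesothelial cells, which had the highest Ptgis in single cells, were 5.28 and 5.08 CPM in CO and 22 and 28.4 CPM in DES, and their part in this was not tested.

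Ptger4, Ptgds, Ptger2 and Ptgfr did not pass either. Ptger4 held 58.1 and 93.3 CPM in CO and 26.3 and 38.4 CPM in DES, a log2 difference of −1.42 ± 0.32 with an adjusted p of 0.0784, and it passed in 2 of 4 other settings, by DESeq2 (0.0019) and with the section letter as a block (0.0456). The groups did not overlap, and per 1000 epithelial marker UMIs Ptger4 was 19.8 and 51.1 in CO and 8.64 and 11.7 in DES, 3.49-fold lower. Ptgds held 2 and 4.08 CPM in CO and 0.329 and 0.304 CPM in DES (log2 −3.41, adjusted p = 0.0522), which do not overlap, and it passed in 3 of 4 other settings (0.00733 to 0.0701). Ptger2 held 0.64 and 4.62 CPM in CO and 1.21 and 0.506 CPM in DES, which overlap (adjusted p = 0.367). Ptgfr held 0.88 and 4.26 CPM in CO and 0.987 and 0.304 CPM in DES, which also overlap (adjusted p = 0.259).

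The cyclooxygenases and Hpgd showed no called difference. Ptgs1 held 10.5 and 12.1 CPM in CO and 15.6 and 13.6 CPM in DES, a log2 difference of 0.16 with an adjusted p of 0.71. Ptgs2 was low in every section, at 0.88 and 1.99 CPM in CO and 1.21 and 0.304 CPM in DES, and its groups overlapped (log2 −1.13, adjusted p = 0.461). In epithelium-rich spots, taken as described below, Ptgs2 was too low to be tested, at 1.64 and 2.76 CPM in CO (9 and 12 UMIs) and 0.283 and 0.531 CPM in DES (1 and 2 UMIs). There both DES sections lay below both CO sections, the same direction as in dissociated epithelial cells. The CO levels in these spots were far below the 34.2 CPM of dissociated CO epithelial cells and near the 2.61 CPM of DES ones. Hpgd held 11.6 and 20.8 CPM in CO and 25.8 and 17.6 CPM in DES, which overlap (adjusted p = 0.766). Mesothelial cells also had the highest Hpgd, and their markers, given above, were higher in both DES sections.

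**Figure D3:**
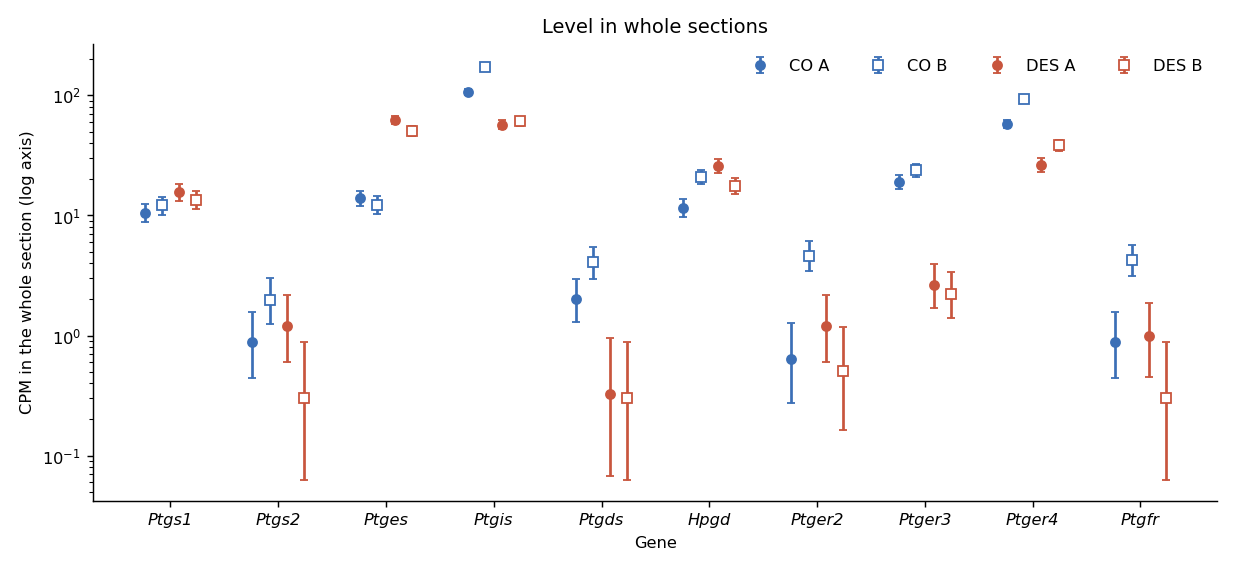
Levels of the 10 genes in whole sections, 2 CO and 2 DES, in CPM on a log axis, 1 point per section with its exact Poisson 95% interval. The DES points lie above the CO points for Ptges and Ptgs1 and below them for Ptgis, Ptgds, Ptger3 and Ptger4, of which Ptges and Ptger3 passed the test.

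Spots were then divided into regions. Stromal spots were the clusters the study named stromal (101 to 211 spots per section), which were formed from the whole expression profile. Of the other spots, the upper and lower 25% by epithelial minus muscle marker score were taken as epithelium-rich and muscle-rich (306 to 411 spots each), and no member is among those markers. Stromal markers in the stromal spots summed to 2222 and 1018 CPM in CO and 1641 and 1106 CPM in DES. Muscle-rich spots held them at 1963 and 1657 CPM in CO and 1037 and 777 CPM in DES, so in CO B the muscle-rich spots had more of them than the stromal spots. In DES A and DES B the muscle markers of the stromal spots, at 2705 and 8369 CPM, were above the stromal ones. The spots named stromal are therefore mixed, and differences between them and muscle-rich spots are differences between these sets of spots. In epithelium-rich spots 4.97% of 12183 genes differed between DES and CO (3% higher and 1.96% lower in DES), and 1 of the 5 members tested passed, Ptges. It held 6.03 and 7.83 CPM in CO and 53.1 and 45.4 CPM in DES, again with no overlap, a log2 difference of 2.56 ± 0.24 or 5.88-fold (adjusted p = 0.0165). Without 1 section the Ptges log2 difference ran from 2.40 to 2.72. The call was lost without DES A and without a filter on low counts (adjusted p = 0.0524).

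The other 4 members tested in epithelium-rich spots did not pass. Ptger4 held 97.4 and 160.3 CPM in CO and 32.5 and 55.3 CPM in DES, a log2 difference of −1.81 ± 0.37 (adjusted p = 0.0595), and it passed by DESeq2 (0.000534) and with the section letter as a block (0.0344). Hpgd held 2.56 and 5.99 CPM in CO and 18.6 and 14.1 CPM in DES (log2 1.68, adjusted p = 0.102). Without 1 section its log2 difference ran from 1.19 to 2.36. Ptgis held 2.01 and 2.99 CPM in CO and 7.91 and 7.97 CPM in DES (adjusted p = 0.119). Mesothelial markers in the same spots moved with Hpgd and Ptgis, at 0.731 and 0.691 CPM in CO and 17.2 and 15.7 CPM in DES. In each CO section 2 of the 3 markers had no UMI there, and in DES A 1 had none. The part of these markers in the Hpgd and Ptgis values was not tested. Ptgs1 held 11.3 and 5.07 CPM in CO and 14.4 and 10.4 CPM in DES and overlapped (adjusted p = 0.756). Ptger2 was not tested there and held 0.913 and 6.45 CPM in CO and 1.41 and 0.531 CPM in DES, which overlap. The CO sections A and B were unlike in these spots for 2 pathway genes described below. Pla2g2e, luminal in CO cells, held 112 and 12.2 CPM, and Hpgds, glandular in CO cells like Ptger2, held 3.84 and 66.3 CPM. Ptgds, Ptger3 and Ptgfr, also not tested, had 0 to 11 UMIs in a section.

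In the sections Ptges was also read against the basal markers Krt14, Trp63 and Krt5, which summed to 3.36 and 160 CPM in the CO sections and to 9526 and 5644 CPM in the DES sections. Spots of each DES section were split into 3 groups of like size by their basal marker score. In DES A, Ptges held 37.5, 72.9 and 64.2 CPM in the low, middle and high groups, where the basal markers summed to 1152, 6730 and 15343 CPM. In DES B it held 31.8, 58.2 and 53.5 CPM, with basal markers at 1158, 4157 and 9564 CPM. In both DES sections Ptges was lowest in the low group, and the intervals of the middle and high groups overlapped. The same split of the CO sections gave 9.46 to 16.8 CPM of Ptges, but its low and middle groups had 0 basal marker UMIs and could not be told apart by basal content, so they are not compared with the DES groups. The part of basal cells in the section result was not tested further.

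**Figure D4:**
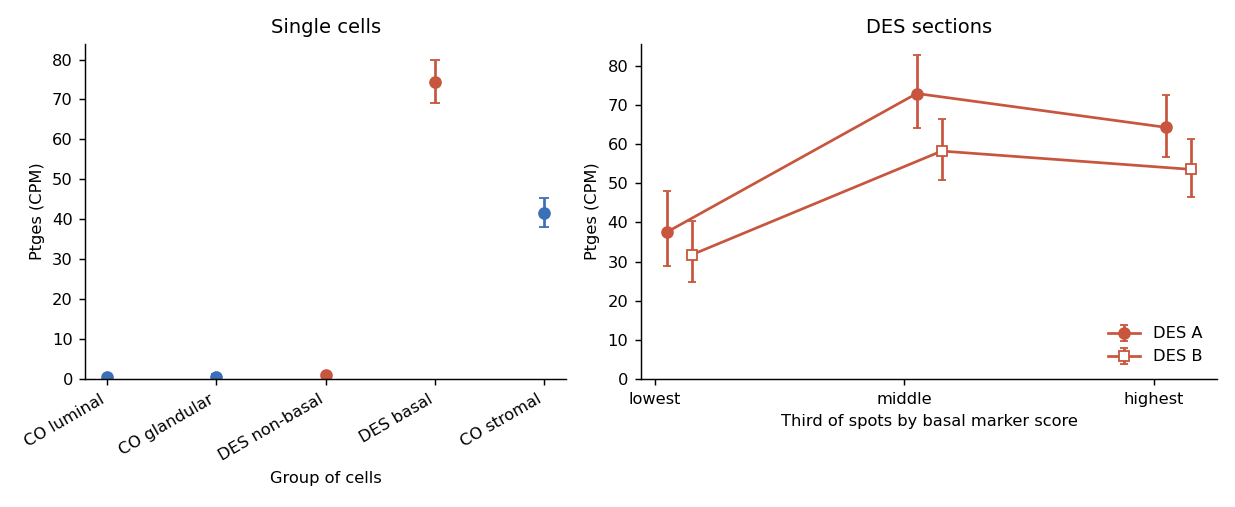
Ptges in 5 groups of single cells (left) and in the 2 DES sections by basal marker score of the spots (right, lines join the groups of a section), in CPM with exact Poisson 95% intervals; DES non-basal are the cells of the DES library's own clusters. DES basal cells (74.3 CPM) and CO stromal cells (41.6 CPM) are the highest of the groups of cells shown, and in DES A and DES B the group of spots with the lowest basal score lies below the other groups.

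In muscle-rich spots 3.37% of 10881 genes differed (2.23% higher and 1.14% lower in DES), and of the 6 members tested Ptger3 alone passed. It held 75.0 and 62.2 CPM in CO and 19.8 and 12.2 CPM in DES, well apart. It fell by 2.38 ± 0.33 on the log2 scale, or 5.21-fold (adjusted p = 0.0136). Without 1 section its log2 difference ran from −2.72 to −2.05, and the call was lost without DES B. The muscle markers in these spots stood at 45766 and 46214 CPM in CO and at 23097 and 17112 CPM in DES, so the spots of the DES sections held a smaller share of muscle RNA, whose part in the result was not tested. Ptgis, which is also expressed by myocytes, held 377 and 555 CPM in CO and 389 and 289 CPM in DES, groups that overlapped (log2 −0.72, adjusted p = 0.246). Ptges held 21.3 and 17.6 CPM in CO and 23.3 and 48.2 CPM in DES (adjusted p = 0.435). Hpgd held 16.8 and 29.6 CPM in CO and 37.4 and 28.3 CPM in DES and overlapped (adjusted p = 0.823). Mesothelial markers in these spots were 8.58 and 4.29 CPM in CO and 47.9 and 49.7 CPM in DES. Ptgs1 (8.21 and 18 CPM in CO, 17.5 and 17.6 CPM in DES) and Ptger4 also overlapped, each with an adjusted p of 0.914. Of the 4 members not tested, Ptgds held 2.24 and 8.58 CPM in CO and 1.17 and 1.53 CPM in DES, Ptgfr 1.87 and 9.87 CPM in CO and the same levels as Ptgds in DES, and Ptgs2 and Ptger2 had 0 to 3 UMIs in a section.

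In stromal spots 1.47% of 8914 genes differed (0.796% higher and 0.673% lower in DES) and none of the 4 members tested passed. Ptgis held 8.95 and 8.67 CPM in CO and 49.2 and 129.9 CPM in DES, a log2 difference of 3.22 ± 0.62 with an adjusted p of 0.0502. It passed in 3 of 4 other settings, by DESeq2, without a filter and with the section letter as a block (0.00198, 2.81e-08 and 0.000317). Without 1 section its log2 difference ran from 2.33 to 3.89. Muscle markers in these spots moved with it, at 888 and 700 CPM in CO and 2705 and 8369 CPM in DES. Ptger4 held 41.2 and 49.9 CPM in CO and 13.8 and 14.4 CPM in DES (log2 −1.77, adjusted p = 0.0828), and it passed in 2 of 4 other settings, without a filter (0.0113) and with the block (0.0397). Ptges held 43.0 and 15.2 CPM in CO and 95.5 and 43.3 CPM in DES, so the lower DES section and the higher CO section were at nearly one level (log2 1.33, adjusted p = 0.316). Without 1 section the Ptges log2 difference ran from 0.68 to 2.15. Basal markers in the same spots were 0 and 90.0 CPM in CO and 7058 and 1998 CPM in DES. Hpgd held 7.16 and 20.6 CPM in CO and 33.5 and 28.9 CPM in DES (adjusted p = 0.463), and mesothelial markers there were 0 in both CO sections and 19.7 and 17.3 CPM in DES. In DES A 1 of the 3 markers had no UMI there. Of the 6 members not tested, Ptgs1 had 3 to 15 UMIs in a section and Ptgs2, Ptgds, Ptger2, Ptger3 and Ptgfr had 0 to 4.

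The regions of a section were compared within sections, in a model with the section as a block. Between epithelium-rich and muscle-rich spots of all 4 sections, 57.3% of 12475 genes differed (29.4% higher and 27.9% lower in epithelium-rich spots), and so did 4 of the 6 members tested. Ptgis was lower in epithelium-rich spots by 6.62 ± 0.29 on the log2 scale (log2 −6.62, adjusted p = 8.46e-09), Ptger3 by 6.98 ± 0.45 (log2 −6.98, adjusted p = 8.63e-08) and Hpgd by 1.89 ± 0.20 (log2 −1.89, adjusted p = 5.19e-06). Ptger4 was higher there by 2.34 ± 0.26 (adjusted p = 7.55e-06). These calls held in each of the 4 other settings and without any 1 section. Ptges (log2 −0.70, adjusted p = 0.052) and Ptgs1 (log2 −0.72, adjusted p = 0.0934) did not pass, though Ptges did in 3 of 4 other settings, and the other 4 members were too low to be tested. Between stromal and muscle-rich spots, where 19.4% of genes differed (9.31% higher and 10.1% lower in stromal spots), Ptgis (log2 −4.11 ± 0.30, adjusted p = 4.00e-06) and Ptger3 (log2 −4.75 ± 0.53, adjusted p = 8.04e-05) were lower in stromal spots, and these too held in every setting.

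The region differences were compared between treatments with an interaction term. For epithelium-rich against muscle-rich spots, 6.46% of genes had a different ratio in DES and CO (2.5% higher and 3.96% lower in DES), and of the members Ptger4 did, with a log2 ratio lower by 2.22 ± 0.55 in DES (log2 −2.22, adjusted p = 0.0342). The Ptger4 levels behind it were 4.11 and 19.3 CPM in CO muscle-rich spots and 18.7 and 14.5 CPM in DES ones, beside the epithelial values above. The epithelial markers in muscle-rich spots moved as well, from 142 and 111 CPM in CO to 444 and 1038 CPM in DES. That call was lost without CO A, DES A or DES B and with 15% of spots at each end of the score (adjusted p = 0.197). Without 1 section the Ptger4 log2 difference ran from −3.21 to −1.59. For stromal against muscle-rich spots, 2.42% of genes had a different ratio (1.15% higher and 1.27% lower in DES) and Ptgis was the member that did, with a log2 ratio higher by 3.88 ± 0.62 in DES (adjusted p = 0.0106). That call was lost without CO A or CO B, and the log2 difference ran from 2.93 to 4.92 without 1 section. The other members tested did not pass in either interaction, with Hpgd (1.40, adjusted p = 0.0578), Ptgis (2.01, adjusted p = 0.0592) and Ptges (1.81, adjusted p = 0.0802) nearest to it for epithelium-rich against muscle-rich spots.

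**Figure D5:**
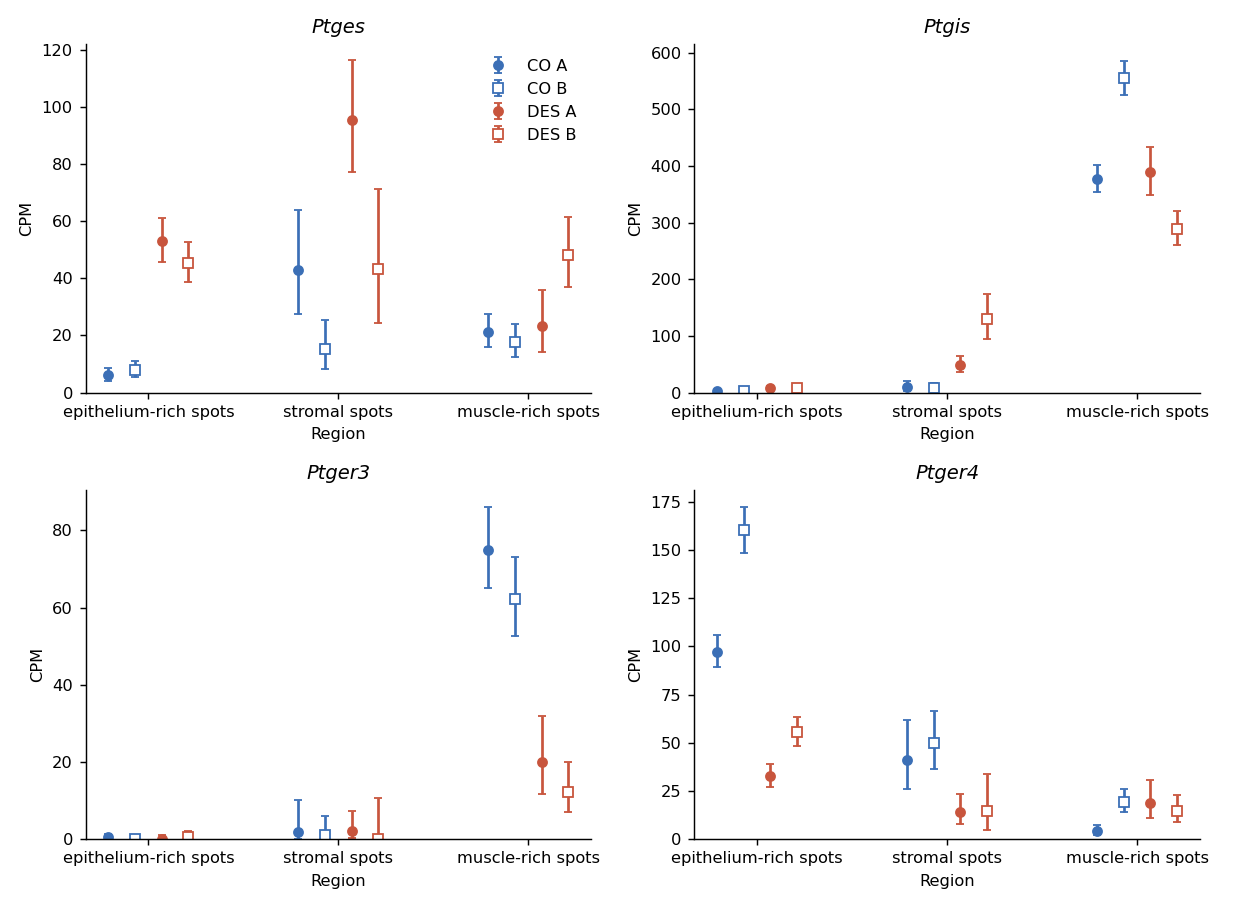
Levels of Ptges, Ptgis, Ptger3 and Ptger4 in epithelium-rich, stromal and muscle-rich spots, in CPM, 1 point per section with its exact Poisson 95% interval. Ptges in epithelium-rich spots is at 45.4 CPM or more in both DES sections and at 7.83 CPM or less in both CO sections, and Ptger3 in muscle-rich spots lies lower in both DES sections.

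Other genes of the pathway came from a list of 22, which holds phospholipases, terminal synthases, reductases, receptors and transporters. In whole sections, where 5.3% of all genes were called, 1 of 21 tested rose in DES and none fell: Akr1c18, a ketosteroid reductase that also acts on prostaglandins, went from 5.04 and 1.81 CPM in CO to 45.2 and 65.1 CPM in DES (log2 3.78 ± 0.54, adjusted p = 0.0319). The Akr1c18 call was lost without DES A (adjusted p = 0.0915) or DES B (0.131). In epithelium-rich spots, with 4.97% of all genes called, 4 of 18 rose and 1 fell. Akr1c18 held 10.2 and 3.46 CPM in CO and 56.2 and 99.1 CPM in DES (adjusted p = 0.0467). Akr1b7, an aldo-keto reductase with prostaglandin F synthase activity, had no UMI in these spots of the CO sections, whose whole areas held 10 and 3. In these spots of the DES sections it held 5.37 and 7.44 CPM. That was at least 21.1-fold higher if the CO spots together are given 3 UMIs (adjusted p = 0.0377). Pla2g10, a secreted phospholipase, went from 0.365 and 1.84 CPM to 26 and 13 CPM (adjusted p = 0.0474), and the prostaglandin transporter Slco2a1 from 8.95 and 5.99 CPM to 41.3 and 28.7 CPM (adjusted p = 0.0426). Mesothelial cells also express Slco2a1, and their markers in these spots went from 0.731 and 0.691 CPM in CO to 17.2 and 15.7 CPM in DES. The part of these markers in the Slco2a1 value was not tested. Pla2g4a, the phospholipase that releases arachidonic acid, fell from 67.0 and 85.0 CPM to 43.0 and 43.8 CPM (adjusted p = 0.0491). In these calls the DES values lay outside the CO values in each case, but all 5 were lost without DES A (adjusted p = 0.058 to 0.385), without DES B (0.0726 to 0.287) and without a filter on low counts (0.0934 to 0.117).

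In muscle-rich spots, with 3.37% of all genes called, 1 of 17 rose and 1 fell. Akr1c18 had no UMI in CO and 7 and 8.41 CPM in DES, at least 13.1-fold higher (adjusted p = 0.0377). Epithelial markers in these spots moved with it, from 142 and 111 CPM in CO to 444 and 1038 CPM in DES, and their part in the Akr1c18 value was not tested. Ptgr1, a prostaglandin reductase, fell from 42.2 and 72.1 CPM to 18.7 and 13 CPM (adjusted p = 0.0325). The Akr1c18 call was lost without CO A (0.137) or CO B (0.126), and the Ptgr1 call without CO B (0.0586) or DES B (0.236). None of 12 passed in stromal spots, where 1.47% of all genes did. Between regions, 6 of 20 were higher in epithelium-rich than in muscle-rich spots and 7 lower, close to the 57.3% called over all genes. That ratio differed between treatments for 2 of 20, Slco2a1 and Ptgr1 (6.46% of all genes). Between stromal and muscle-rich spots, with 19.4% of all genes called, Pla2g2e and Ptgdr2 were higher in stromal spots, and Fam213b, Tbxa2r and Ptgr1 lower.

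In single cells, the pathway genes at 50 CPM or more in a cell type marked several compartments. Pla2g4a held 122 CPM in CO and 131 CPM in DES epithelium, and Pla2g2e, a secreted phospholipase, 107 and 78.0 CPM there. Within the CO epithelium Pla2g2e was luminal (121 CPM against 8.38 CPM in glands), and Hpgds, a prostaglandin D synthase, was glandular (237 CPM against 1.51 CPM). Hpgds was also high in myeloid cells, at 177 CPM in CO and 295 CPM in DES, as was the thromboxane synthase Tbxas1, at 68.2 and 90.2 CPM. Akr1b3 held 343 CPM in CO and 699 CPM in DES mesothelial cells, and Slco2a1 held 111 CPM in CO and 39.5 CPM in DES ones. Cbr1, a carbonyl reductase, held 41.1 CPM in CO and 84.7 CPM in DES epithelium. Ptges3, a co-chaperone with prostaglandin E synthase activity, was above 100 CPM in every cell type of 50 or more cells, and Fam213b reached 66.5 CPM in CO myeloid cells. Of the 5 genes called in epithelium-rich spots, Pla2g10 (0.114 CPM in CO and 3.41 CPM in DES epithelial cells) and Slco2a1 (5.85 and 15.5 CPM) had the same direction in cells. Akr1c18 (7.03 and 0.25 CPM), Akr1b7 (0.241 and 0.165 CPM, from 19 and 29 UMIs) and Pla2g4a, as given above, did not.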

How the data were processed

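Single-cell and spatial libraries were 10x Genomics products (3′ version 3 chemistry and Visium). Using mm10, the authors obtained raw UMI counts from Cell Ranger 3.0.1 for cells and Space Ranger 1.2.2 for spots, removed doublets from the single cells and gave cell types and clusters, and these counts were deposited without normalization. The metadata listed 49049 cells, of which 350 had no counts and were not used. All 6 samples were used and every value column was mapped.

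Single-cell UMIs were summed per library and cell type or cluster and given as CPM with 95% Poisson intervals (exact). Shares of cells with a UMI were taken after thinning cells to 3000 UMIs, leaving out shallower cells. No test was made, since each treatment has 1 library. Labels were checked on 2 to 5 marker genes per cell type.

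Spatial UMIs were summed per section and region and tested with edgeR 4.0.16 (quasi-likelihood test, TMM factors, filterByExpr) in R 4.3.3, with Benjamini-Hochberg adjustment over all genes tested and a threshold of 0.05. Region contrasts used 1 model with the section as a block. Each section is 1 mouse. SEs were derived from the log2 fold change and its F statistic. Alternatives were DESeq2 1.42.0, its size factors in edgeR, no filter on low counts, 15% of spots in place of 25%, the section letter as a block and leaving out each section. The scripts were tested on simulated counts. The same letter did not pair sections: correlations of their deviations were −0.031 to 0.087.

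The members and all lists were chosen with earlier results of these data known. The rule for named genes took all 10 members in every comparison, with those too low to be tested given by their UMIs, and those of 22 further pathway genes that passed a test or reached 50 CPM in a cell type of 50 or more cells. The scalings to muscle and epithelial markers, the basal score groups and the immediate early genes were added after the data were seen. A sequenced UMI is counted at the 3′ end, so genes sharing 3′ ends cannot be told apart, and intervals cover counting error only.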

Additional observations from a re-analysis of the deposited data

Results flagged for a closer look

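The ratio of epithelium-rich to muscle-rich spots differed between DES and CO sections for 1 member and 2 further pathway genes, each by the interaction term. For Ptger4 the log2 ratio was lower in DES (log2 −2.22, adjusted p = 0.0342), and for the transporter Slco2a1 (1.97, adjusted p = 0.0177) and the reductase Ptgr1 (3.04, adjusted p = 0.00547) it was higher. The Slco2a1 call was lost without CO A (adjusted p = 0.162) or DES A (0.0739), and the Ptgr1 call was kept without any 1 section. The ratio of stromal to muscle-rich spots differed for Ptgis, with a log2 ratio higher in DES by 3.88 (adjusted p = 0.0106). The muscle markers in stromal spots were 888 and 700 CPM in CO and 2705 and 8369 CPM in DES, and their part in that result was not tested.

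Cells to which the authors gave no cell type entered no comparison. In them Ptges held 6.02 CPM in DES and 3.08 CPM in CO, and Ptger2 held 2.55 CPM in DES and 1.31 CPM in CO, each from 1 library and with no test.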

How the results depend on the processing

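Counts of genes called depended on the setting, and the cause was not tested. For whole sections DESeq2 called 1791 genes, and leaving out 1 section gave 3 (without DES B) to 2819 (without CO A). In stromal spots the count was 714 without a filter, 453 with the section letter as a replicate block and 40 to 357 without 1 section. In epithelium-rich spots it was 1270 by DESeq2, 51 without a filter and 145 to 2089 without 1 section. In muscle-rich spots it was 1296 without a filter, 732 with the replicate block, 116 with 15% of spots and 86 to 452 without 1 section. The epithelium to muscle ratio by treatment gave 1477 without a filter, 409 with 15% of spots and 197 to 441 without 1 section. The stroma to muscle ratio gave 830 to 2176 over all sections, and by treatment 908 without a filter, 198 with 15% of spots and 37 to 394 without 1 section. Letters did not pair the sections, so the block is an alternative only.

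Members that did not pass the test turned sign in some settings. Ptgs1 was −0.17 in muscle-rich spots with 15% of spots, and its epithelium to muscle ratio by treatment was 0.019 by DESeq2, 0.049 with DESeq2 size factors and 0.66 with 15% of spots. Without 1 section, log2 values ran as follows. Hpgd ran from −0.13 to 0.66 in whole sections and from −0.15 to 0.69 in muscle-rich spots, and Ptger2 from −2.62 to 0.17 in whole sections. Ptgs1 ran from −0.18 to 1.03 in epithelium-rich spots, from −0.31 to 0.84 in muscle-rich spots and from −1.10 to 1.24 in the epithelium to muscle ratio by treatment. Ptger4 ran from −0.52 to 1.73 in muscle-rich spots and Ptger3 from −0.21 to 4.58 in the epithelium to muscle ratio by treatment. In the stroma to muscle ratio Ptges ran from −0.019 to 1.05 over all sections and from −0.31 to 1.71 by treatment, and Ptger3 from −1.88 to 2.43 by treatment. Per muscle marker UMIs, Ptgis in whole sections was 0.84 on the log2 scale. The Ptger2 ratio in epithelial cells was 0.903 as a mean over cells.

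Over settings other than leaving out a section, 179 of the members' fold changes in sections kept direction and, where tested, side of the threshold. Another 25 passed that had not, 2 no longer passed and 5 turned sign. The scalings to marker UMIs are counted here by sign only, since they carry no test. In the fits that left out 1 section, 13 turned sign. Of 54 single-cell ratios 46 moved by less than their interval. Of 80 shares of cells with a UMI, 64 moved by more than theirs under another thinning or none, so a share holds at 3000 UMIs only. Sections of 2 mice per treatment limit every test, and single cells of 1 library allow none.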
